A study of Danio rerio with 13 samples.

Results

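The genes opn1sw1, opn1sw2 and opn1mw1 encode the ultraviolet, blue and a green cone opsin of the zebrafish. On the Affymetrix zebrafish array each was represented by 1 probe set, so they made up 3 of the 15502 probe sets analysed and 3 of 8793 genes named by them. They were selected by their gene symbol in the platform annotation, after it was known from the same arrays that photoreceptor transcripts were low where autophagy genes had been knocked down. Their knockdown levels against the controls are therefore given as a description, with no p-value. Whether they were called there is stated only beside the calls over all probe sets, and nothing is read from it.

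RNA came from preparations labelled heart, purified from zebrafish at 3 days post-fertilization, and was measured on 13 arrays with 1 array a preparation. A morpholino, a synthetic antisense oligonucleotide, against atg5 (3 arrays), becn1 (3 arrays) or atg7 (2 arrays) had been injected at the 1-cell stage. The controls were embryos given a control morpholino (2 arrays, numbered 2 and 3) and embryos left uninjected (3 arrays). One becn1 preparation (number 3) is titled becn, which was read as becn1. Whether each morpholino blocked translation or splicing, how many embryos were pooled and which strain was used are not given in the sources used here. A knockdown by morpholino acts in the whole embryo, not in the heart alone. The labels call the arrays biological replicates, and the p-values below measure the spread between these preparations.

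Cone opsins are the light receptors of cone photoreceptors. Each consists of a protein of the G-protein-coupled receptor family that holds a retinal chromophore, and each cone type uses an opsin tuned to part of the spectrum. Light activates the opsin, which passes the signal to cone transducin and then to a phosphodiesterase that lowers cyclic GMP and closes ion channels. In fish the opsin genes are switched on late in cone differentiation, after regulators such as crx have set photoreceptor fate, and their RNA marks photoreceptors of the retina rather than heart cells. In the current gene table (GRCz12tu assembly) opn1sw2 lies next to the red opsin genes opn1lw1 and opn1lw2, opn1mw1 opens the row of green opsin genes that goes on with opn1mw2, opn1mw3 and opn1mw4, and opn1sw1 has no opsin gene as a neighbour.

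Signals are given as intensities after quantile normalization, and levels as their log2. Signals under 16 were treated as weak, since differences that rest on them have no exact size. Where a weak signal enters a difference, the value with intensities under 16 set to 16 is called floored. The arrays differed in brightness before normalization, with median intensities of 32.4 to 65.4. Loss of the 5' end, as seen with degraded RNA, was measured on GAPDH: its 3' probe signal exceeded its 5' signal 5.98 times on atg7 2 and at most 3.28 times on the remaining 12 arrays. For the actin gene acta1 this ratio was 86.2 on atg7 2 and 8.03 to 29.9 on the remaining 12 arrays. The transcript of atg5 itself was at 282 to 307 on the atg5 arrays, against 234 and 298 with control morpholino and 248 to 289 in uninjected preparations. A second, dimmer atg5 probe set was at 22.8 to 28.3 on the atg5 arrays, against 23.9 and 28.3 with control morpholino and 22.1 to 25.4 uninjected. This says nothing about the labels, because blocking a message does not have to reduce its amount. For becn1 and atg7 no probe set carries the symbol in the annotation used. Of 25 heart genes listed, 16 were on the array and 11 passed the intensity filter, among them myl7, the cardiac myosin light chain. myl7 was at 919, 107 and 207 in atg5 preparations, 769, 141 and 131 in becn1, 1067 and 120 in atg7, 176 and 148 with control morpholino, and 99.3, 345 and 112 uninjected. It was high on the 3 knockdown arrays numbered 1.

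opn1sw1, the ultraviolet opsin, was lower on each of the 8 knockdown arrays than on any of the 5 control arrays. Its intensity was 190, 207 and 211 on atg5 1, 2 and 3, 0.482, 54.4 and 182 on becn1 1, 2 and 3, and 0.635 and 16.6 on atg7 1 and 2. It was 669 and 574 on control morpholino 2 and 3, and 1255, 429 and 915 on uninjected 1, 2 and 3. The atg5 arrays lay close together, the becn1 arrays spread over the whole span from weak to the atg5 level, and atg7 2 lay just above the limit of 16 and atg7 1 far under it. The opsin signals nearest to that limit were 16.6 for opn1sw1 on atg7 2, just above it, and 12.9 for opn1sw2 on becn1 1, just under it. The mean log2 level was 7.66 ± 0.08 (SD, n = 3) in atg5, 9.28 ± 0.16 (SD, n = 2) after control morpholino injection, and 9.63 ± 0.80 (SD, n = 3) in uninjected preparations.

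opn1sw2, the blue opsin, showed the same order of groups. It was at 377, 545 and 503 on atg5 1, 2 and 3, 12.9, 146 and 490 on becn1 1, 2 and 3, and 8.92 and 69.0 on atg7 1 and 2. With control morpholino it was at 1610 and 1128, and in uninjected preparations at 2168, 902 and 1490. The highest knockdown signal, 545 on atg5 2, lay below the lowest control signal, 902 on uninjected 2. Its mean log2 level was 8.87 ± 0.28 (SD, n = 3) in atg5, 10.40 ± 0.36 (SD, n = 2) after control morpholino injection, and 10.48 ± 0.63 (SD, n = 3) without injection. As for opn1sw1, its signals on becn1 1 and atg7 1 were weak.

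opn1mw1, a green opsin, was at 146, 144 and 228 on atg5 1, 2 and 3, 0.303, 39.5 and 134 on becn1 1, 2 and 3, and 0.721 and 21.8 on atg7 1 and 2. It was at 792 and 381 with control morpholino and at 939, 311 and 609 uninjected. The gap between the sides was narrower here, from 228 on atg5 3 to 311 on uninjected 2. On the deposited scale, without normalization, the sides overlapped for this gene alone of the 3: atg5 3 had 321, against 244 on control morpholino 3. Its mean log2 level was 7.40 ± 0.37 (SD, n = 3) in atg5, 9.10 ± 0.75 (SD, n = 2) after control morpholino injection, and 9.14 ± 0.80 (SD, n = 3) without injection.

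**Figure D1:**
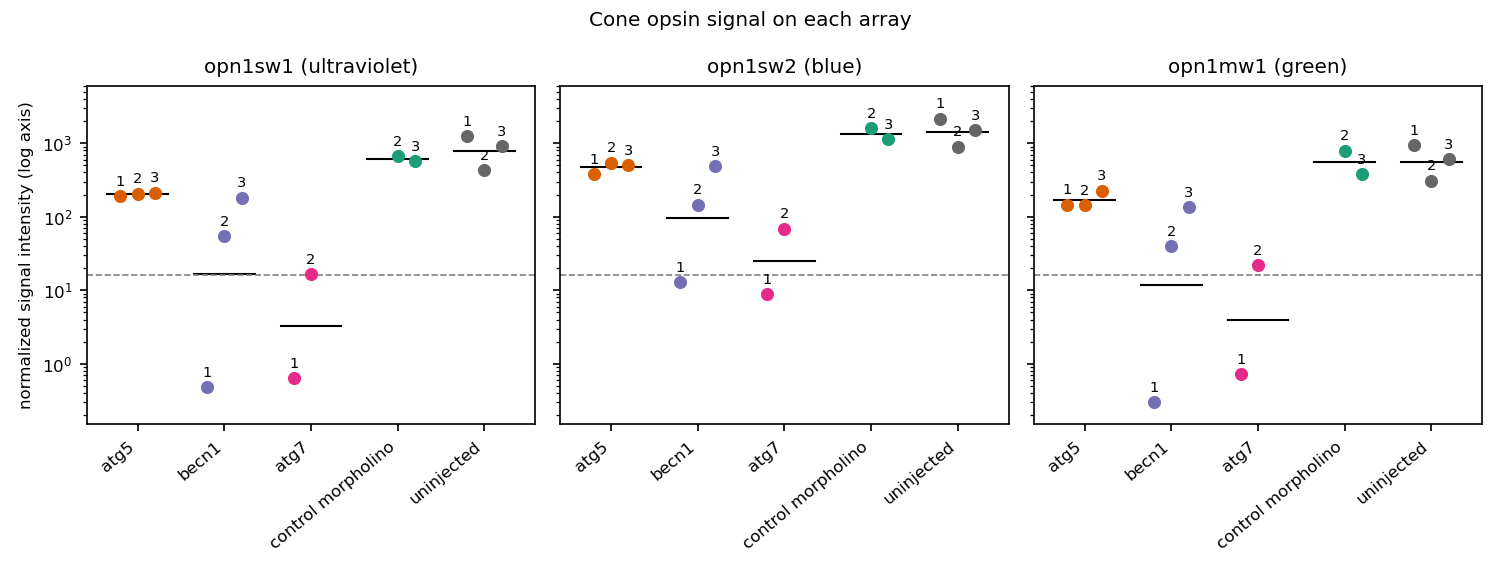
Normalized signal intensity (log axis) of the 3 cone opsin probe sets by group. Each point is an array with its replicate number, black lines are means of log2 levels, and the dashed line is the limit of 16. All 8 knockdown arrays lie below all 5 control arrays in each panel, and becn1 1 and atg7 1 lie under the limit.

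Against control morpholino each opsin had lower means in all 3 knockdowns, with the smallest differences in atg5 and the largest in atg7. In atg5 preparations the log2 differences were -1.61 (SE 0.71) for opn1sw1, -1.52 (SE 1.02) for opn1sw2 and -1.70 (SE 0.69) for opn1mw1, or 3.06-, 2.87- and 3.26-fold lower, with the SE of the floored fit. No weak signal enters these atg5 differences, and in the fit without floor their SE were larger, at 1.88, 1.15 and 1.96. Both sets of SE come from 1 estimate of the spread over all 13 arrays, so becn1 1 and atg7 1 enter them. In a fit of the atg5 and control morpholino arrays only, the SE were 0.17, 0.22 and 0.35. In becn1 preparations the floored differences were -3.52 (SE 0.71), -3.69 (SE 1.02) and -3.65 (SE 0.69) in the same order. In atg7 preparations they were -5.25 (SE 0.78), -5.34 (SE 1.12) and -4.88 (SE 0.76). Since 1 becn1 array and 1 of the 2 atg7 arrays enter these at the floor, their sizes, SE and order among the opsins are set in part by the floor. On atg7 2, where all 3 were measured, opn1sw1 was 37.4-fold, opn1sw2 19.5-fold and opn1mw1 25.2-fold below the control morpholino mean. On becn1 2 these folds were 11.4, 9.26 and 13.9, and on becn1 3 they were 3.40, 2.75 and 4.11. The array atg7 2 also had the highest 3' to 5' ratios of GAPDH and acta1. The part of RNA quality in its opsin values was not tested. Against uninjected preparations the floored differences of opn1sw1, opn1sw2 and opn1mw1 were -1.96, -1.61 and -1.74 in atg5, -3.87, -3.77 and -3.68 on the becn1 arrays, and -5.60, -5.43 and -4.91 in atg7. The 3 knockdown comparisons with control morpholino share the same 2 control arrays. In bulk RNA fewer cones and less opsin RNA per cone cannot be told apart.

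The becn1 and atg7 sizes depended on which preparation was included. Without floor, the differences from control morpholino were -5.20, -3.79 and -5.55 for opn1sw1, opn1sw2 and opn1mw1 in becn1, and -2.64, -2.34 and -2.92 without becn1 1. In atg7 they were -7.58, -5.76 and -7.11, and -5.22, -4.29 and -4.65 without atg7 1, which leaves atg7 2 alone. With all arrays numbered 1 left out, the differences were -1.57, -1.36 and -1.60 in atg5. Control morpholino has no array numbered 1. The atg5 sizes were smaller with a term for the replicate number in the fit, as given under the processing.

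**Figure D2:**
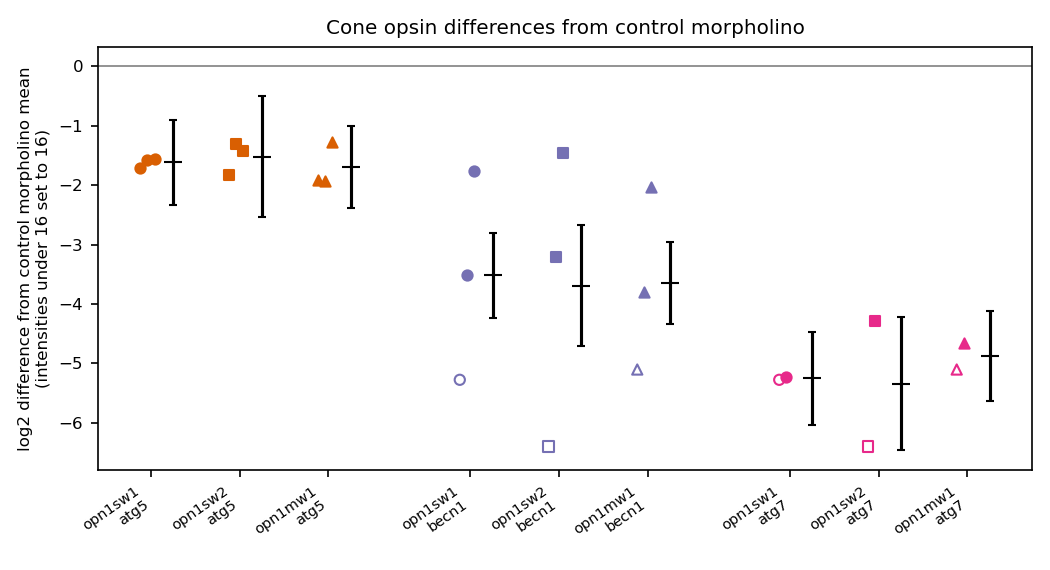
Log2 difference of each knockdown array from the control morpholino mean (coloured points, open where the signal was under 16 and was set to 16), with the floored fitted difference and its SE in black, for each opsin and knockdown. The atg5 values lie between -1.27 and -1.93, the becn1 arrays are spread from -1.46 down to the floor, and the atg7 arrays lie at -4.29 or lower.

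Over all probe sets above the intensity filter, limma at an adjusted p under 0.05 called 0% in atg5 and 0% in becn1 against control morpholino, 0.0582% in atg7 and 0% in the 3 knockdowns together. At an unadjusted p under 0.05 there were 248, 544, 1035 and 559 probe sets, with 515 expected without any effect. At the adjusted threshold none of the 3 opsins was called against control morpholino. Against uninjected preparations 0% were called in atg5, 0.0097% in becn1 and 3.08% in atg7, and the atg7 calls included opn1sw1 and opn1sw2. With all arrays 317 probe sets were called there. Without uninjected 1 or uninjected 3 no opsin was called, with 17 probe sets called in each case. Without uninjected 2 opn1sw2 alone of the opsins was called, among 413 probe sets, and floored all 3 were, among 378. Leaving out atg7 1 or atg7 2 leaves a single atg7 array, so no calls are given for it. Separately, 59 of 10307 probe sets (0.572%) had all 8 knockdown arrays below all 5 control arrays, and the 3 opsins were among these 59. Since the opsins were chosen with such values known, nothing is read from these counts.

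The control morpholino itself went with no called difference in the opsins. Against uninjected preparations the log2 differences were -0.35 (SE 1.88) for opn1sw1, -0.08 (SE 1.15) for opn1sw2 and -0.03 (SE 1.96) for opn1mw1, each with a limma adjusted p of 1, and 0% of all probe sets were called (266 at an unadjusted p under 0.05). These SE values come from 1 estimate of the spread over all 13 arrays, the weak becn1 1 and atg7 1 signals included. Uninjected 1 had the highest signal of each opsin and uninjected 2 the lowest of the uninjected arrays, and both control morpholino arrays lay within that range.

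The knockdowns were also compared with each other. Between atg7 and atg5 the log2 differences were -5.96 (SE 1.88) for opn1sw1, -4.24 (SE 1.15) for opn1sw2 and -5.41 (SE 1.96) for opn1mw1, with limma adjusted p of 0.308, 0.268 and 0.341, and 0.0194% of all probe sets were called. These values rest on the weak atg7 1 signals. Floored they were -3.64, -3.82 and -3.17, with limma adjusted p of 0.106, 0.243 and 0.150. Both atg7 arrays lay below all 3 atg5 arrays for each opsin. The share of all probe sets with that order was not counted, so nothing is read from it. On the deposited intensities the 3 atg7 minus atg5 differences were called, at -6.03 (SE 1.09), -4.28 (SE 0.75) and -5.48 (SE 1.15). Their limma adjusted p were 0.00429, 0.00324 and 0.0223, and 14 probe sets were called there in all. After normalization the differences were close to these but the SE larger, and none was called. The opsins were chosen with low knockdown values known, and atg7 1 was weak on both scales. Nothing is read from the calls on deposited intensities. Between becn1 and atg5 the differences were -3.59 (SE 1.69), -2.27 (SE 1.03) and -3.85 (SE 1.75), each with a limma adjusted p of 0.812 and 0% called (630 at an unadjusted p under 0.05), and becn1 3 lay just under the atg5 range for opn1sw1 and opn1mw1 and within it for opn1sw2. They rest on the weak becn1 1 signals: floored they were -1.90, -2.17 and -1.94, and without becn1 1 they were -1.02, -0.81 and -1.21. Between atg7 and becn1 they were -2.37 (SE 1.88), -1.97 (SE 1.15) and -1.56 (SE 1.96), each with a limma adjusted p of 0.963, and 0.0194% called, or floored -1.73, -1.65 and -1.23. The order of levels, atg7 lowest, then becn1, then atg5, then both control groups, is thus a description: becn1 overlapped atg7 for each opsin and atg5 for opn1sw2, and control morpholino overlapped uninjected.

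Across arrays the 3 opsins moved together. Over the 13 arrays Pearson's r of log2 levels was 0.991 between opn1sw1 and opn1sw2, 0.995 between opn1sw1 and opn1mw1 and 0.983 between opn1sw2 and opn1mw1, and 0.993, 0.982 and 0.988 over the 11 arrays without becn1 1 and atg7 1. These points share their RNA within an array and are given with no p. The ratio of the opsins to each other was not quite constant. On the 6 knockdown arrays with both signals measured, the log2 ratio of opn1sw2 to opn1sw1 was 0.99 to 2.06 with a median of 1.41, and on the 5 control arrays it was 0.70 to 1.27 with a median of 0.97. The blue opsin thus lay somewhat less low than the ultraviolet opsin on most knockdown arrays, with overlap between the sides, and the highest ratio was on atg7 2, where opn1sw1 was just above the limit. The log2 ratio of opn1mw1 to opn1sw1 was -0.52 to 0.40 on knockdown arrays and -0.59 to 0.24 on control arrays, and these ranges overlapped over most of their length.

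Of the 10 visual opsins listed, 6 had a named probe set. Besides the 3 members these were opn1mw2, the neighbour of opn1mw1, opn1mw4 and the red opsin opn1lw1. opn1mw2 was at 13.7, 22.4 and 28.9 on the atg5 arrays, 5.09, 12.3 and 20.9 on the becn1 arrays and 4.76 and 7.56 on the atg7 arrays. It was at 44.2 and 34.8 with control morpholino and 36.9, 23.8 and 39.7 uninjected. Its highest knockdown signal, on atg5 3, was above uninjected 2, and 5 of the 8 knockdown arrays were weak. The opn1mw genes are close paralogs, and how far the opn1mw1 and opn1mw2 probes distinguish them was not tested. opn1lw1 (highest signal 8.52) and opn1mw4 (highest 9.50) were weak on all 13 arrays, controls included, although opn1lw1 neighbours opn1sw2 in the genome. exorh, the opsin of the pineal organ, was weak on all 13 arrays too, while aanat2, a melatonin synthesis enzyme of pineal and retina, was at 36.3 to 52.0 in atg5, 15.9 to 46.2 in becn1, 24.7 and 36.1 in atg7, 38.0 and 33.3 with control morpholino and 23.0 to 36.8 uninjected. No other visual opsin of the list has a named probe set here.

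Genes that act after the opsins in cones lay lower along with them. Of 22 cone phototransduction genes listed, 9 were on the array and 7 passed the filter, and all 7 had lower means in each knockdown than with control morpholino. The median log2 difference was -1.52 in atg5, -3.06 in becn1 and -3.99 in atg7, against 0.01, 0.02 and 0.02 over all probe sets above the filter. Floored, the atg7 median was -3.53. Of the 7, limma called 0 in atg5, 0 in becn1 and 1 in atg7, beside 0%, 0% and 0.0582% of all probe sets, and the list was chosen with results of these arrays known. The called gene was gnb3b, a beta subunit of cone transducin, with a log2 difference of -4.11 (SE 0.59, limma adjusted p = 0.0433). It was at 16.4 and 30.6 in atg7 preparations, against 433 and 348 with control morpholino. Its adjusted p depended on single arrays: with control morpholino 2, control morpholino 3, atg7 1 or atg7 2 left out it was 0.435, 0.372, 0.186 or 0.126, with log2 differences of -4.57 to -3.66.

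gnat2, the alpha subunit of cone transducin, which the light-activated opsin switches on, was at 152, 216 and 345 in atg5, 12.5, 90.9 and 169 on the becn1 arrays, and 14.3 and 51.4 in atg7. With control morpholino it was at 787 and 525, and uninjected at 1016, 383 and 987. As with the opsins, all 8 knockdown arrays lay below all 5 controls, and becn1 1 and atg7 1 were weak. Of the 7 cone phototransduction genes above the filter, 5 had this order, beside 0.572% of all probe sets. The list was chosen with such values known, so nothing is read from that count. gngt2b, a gamma subunit of cone transducin, was above the limit on every array and so was measured also where the opsins were weak. It was at 1374, 2062 and 1933 in atg5, 26.0, 524 and 1265 on the becn1 arrays, and 47.5 and 364 in atg7, against 4124 and 2950 with control morpholino and 4606, 2102 and 3873 uninjected. It differed from control morpholino by -0.98 (atg5), -3.75 (becn1, SE 1.23) and -4.73 (atg7, SE 1.34) on the log2 scale, with limma adjusted p of 1, 0.857 and 0.372. Its paralog gngt2a had smaller differences of -0.52, -2.11 and -2.22. On atg5 2 and atg5 3 gngt2a was at 563 and 521, within its control range of 351 to 962.

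**Figure D3:**
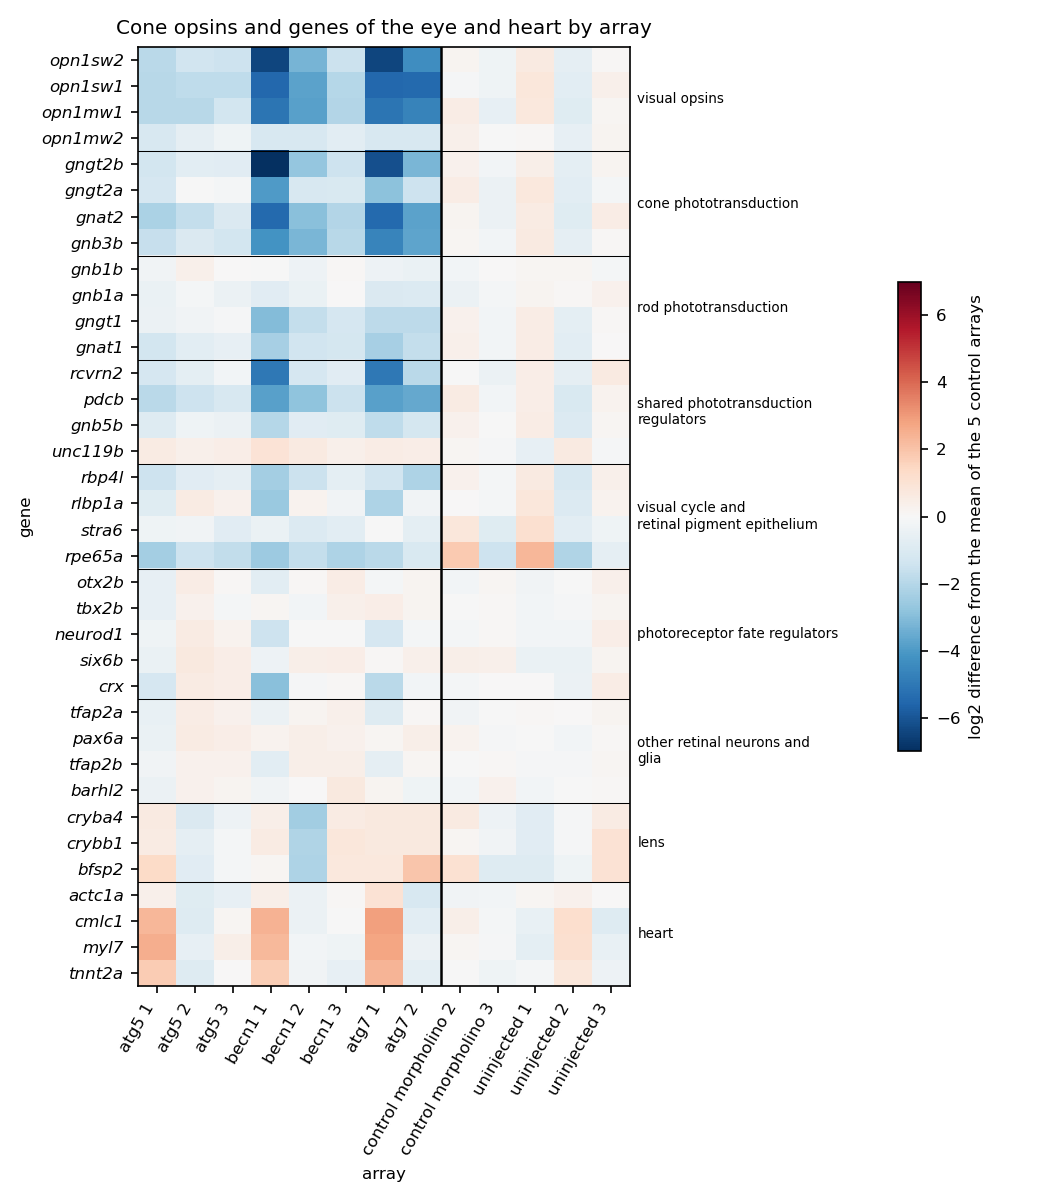
Log2 difference of each array (columns) from the mean of the 5 control arrays, with signals under 16 set to 16, for the opsins and named genes of each list (lines of the map), knockdown arrays to the left of control arrays. Blue is lower and red is higher. The 3 opsins and the cone transducin genes gngt2b, gnat2 and gnb3b share a block of low values on the knockdown arrays, deepest on becn1 1 and both atg7 arrays. gngt2a, also of cone transducin, lies within its control range on atg5 2 and atg5 3.

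Components of rods were measured too. Of 16 rod phototransduction genes, 6 were on the array and 4 passed the filter, with 3, 4 and 4 lower and medians of -0.17, -1.07 and -1.28 in atg5, becn1 and atg7, and limma called none. Floored, the becn1 median was -0.92. gngt1, the gamma subunit of rod transducin, was at 357 to 442 in atg5, 57.8 to 208 in becn1 and 132 and 135 in atg7, against 575 and 408 with control morpholino and 294 to 688 uninjected, and gnat1, the rod alpha subunit, had floored differences of -0.96, -1.71 and -2.07. gnb1b, a beta subunit used in many cell types, had 0.13, -0.00 and -0.32. Rhodopsin (rho) itself has no named probe set here. Of the regulators shared by rods and cones, 6 of 17 were measured above the filter. Their medians were -0.57, -1.87 and -2.33, or -0.57, -1.74 and -2.02 floored. In each knockdown 5 of the 6 were lower, and none was called. Among them pdcb, a phosducin that binds transducin, had floored differences of -1.68, -2.90 and -3.86, and unc119b had 0.45, 0.63 and 0.47.

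Genes with other eye functions were counted in the same way, with no test between lists. Of 24 visual cycle and pigment epithelium genes, 9 passed the filter, with 7, 9 and 8 lower and medians of -0.41, -0.82 and -0.96 in atg5, becn1 and atg7. Of 27 photoreceptor fate regulators, 16 passed, with 11, 11 and 9 lower and medians of -0.11, -0.19 and -0.10, and limma called none in either list. By array the floored fate regulator median was -0.70 on atg5 1, -0.91 on becn1 1 and -0.21 on atg7 1. On knockdown arrays not numbered 1 it was 0.03 to 0.51, against -0.24 to 0.11 on control arrays. otx2b, a homeobox gene of early eye and photoreceptor development, had differences of 0.03, -0.04 and 0.06. crx, the photoreceptor homeobox gene that acts upstream of opsins, was chosen after its values were seen. It was at 154, 516 and 483 in atg5, 45.6, 326 and 372 on the becn1 arrays, and 93.5 and 302 in atg7, against 316 and 349 with control morpholino and 347, 260 and 498 uninjected. On atg5 1, becn1 1 and atg7 1, crx was at 154, 45.6 and 93.5, below the lowest control signal of 260, and each opsin was below its controls too. On knockdown arrays not numbered 1, crx was within or near the control range, while each opsin was below its own. Of 34 markers of other retinal neurons and glia, 21 passed the filter, with 11, 14 and 12 lower, medians of -0.03, -0.15 and -0.26, and no calls. Their summed intensity was 5801 to 8032 in atg5, 5260 to 7628 in becn1, 5556 to 6880 in atg7, 6763 to 7921 with control morpholino and 6084 to 8159 uninjected. By array their floored median was -0.32 on atg5 1, -0.52 on becn1 1 and -0.42 on atg7 1, below every control array. On knockdown arrays not numbered 1 it was -0.07 to 0.17, against -0.23 to 0.05 on control arrays. All 5 measured genes of photoreceptor structure and synapse had lower means in each knockdown, with medians of -0.58, -1.86 and -1.90, or -0.58, -0.90 and -1.05 floored. The 3 lens genes had medians of -0.02, -0.53 and 0.74, and the 10 brain neuron genes -0.03, -0.37 and -0.62. By array the brain neuron median was -1.05 on becn1 1 and -0.97 on atg7 1, where the opsins were weak, and -0.19 to 0.03 on the other 6 knockdown arrays, against -0.42 to 0.50 on control arrays. Its part in the opsin values was not tested. None of the genes in these 3 lists was called.

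Heart markers were high on the 3 knockdown arrays numbered 1. The 11 heart genes above the filter had a summed intensity of 1241 to 5004 in atg5, 1565 to 4985 in becn1 and 1128 to 6919 in atg7, against 1781 to 2113 with control morpholino and 1813 to 2993 uninjected. Their median floored log2 difference from control morpholino was 0.87 on atg5 1, 0.71 on becn1 1 and 1.06 on atg7 1, and -0.55 to -0.17 on the other 5 knockdown arrays. The opsins were weak on becn1 1 and atg7 1 but not on atg5 1. The part of tissue composition in the opsin differences was not tested. On the 5 knockdown arrays not numbered 1, the cone phototransduction medians were -1.28 and -1.24 in atg5, -2.73 and -1.46 in becn1 and -3.26 in atg7.

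**Figure D4:**
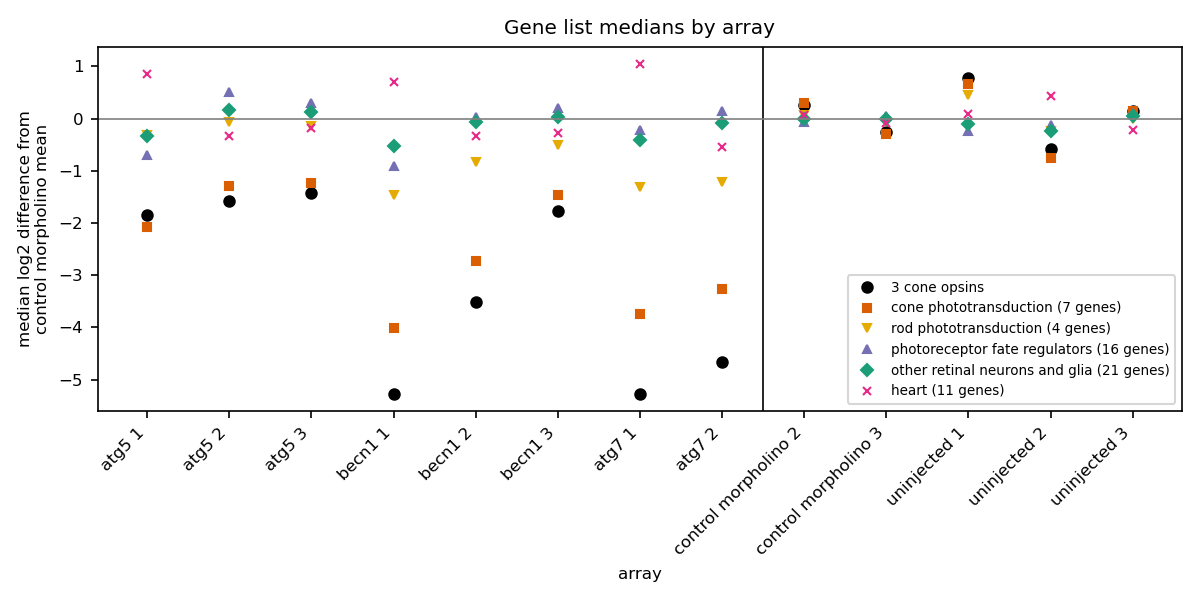
Median log2 difference from the control morpholino mean on each array, with signals under 16 set to 16, for the opsins and the gene lists. Cone phototransduction follows the opsins, whereas the heart list is high on atg5 1, becn1 1 and atg7 1 and below 0 on the other 5 knockdown arrays.

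The probe sets most like each opsin were found by Pearson's r of log2 levels over the 13 arrays, among 7666 probe sets with 1 gene symbol. gngt2b was closest to all 3, with r = 0.994 for opn1sw1, 0.985 for opn1sw2 and 0.997 for opn1mw1. For opn1sw1 it was followed by rcvrn2, a recoverin (0.977), sypb, a synaptophysin of synaptic vesicles (0.975), gnat2 (0.973) and ckmt2a, a mitochondrial creatine kinase (0.959). For opn1sw2 these were gnat2 (0.984), pdcb (0.971), opn1mw2 (0.971) and sypb (0.969), and for opn1mw1 rcvrn2 (0.983), atp6v0cb, a subunit of the vacuolar proton pump (0.972), gnat2 (0.971) and guk1b, a guanylate kinase (0.968). The points share their RNA within an array, and the weak signals carry weight. Floored, r with opn1sw1, opn1sw2 and opn1mw1 was 0.921, 0.983 and 0.923 for gngt2b. For gnat2 it was 0.972, 0.986 and 0.979, higher than for gngt2b with each opsin. Without becn1 1 and atg7 1, ckmt2a had rank 41, rcvrn2 15 and sypb 12 for opn1sw1, and sypb had rank 18 for opn1sw2. For opn1mw1, atp6v0cb had rank 34, guk1b 29 and rcvrn2 15. For opn1sw2, opn1mw2 had rank 7 and pdcb 3. gnat2 had ranks 5, 4 and 4 for opn1sw1, opn1sw2 and opn1mw1, and gngt2b had rank 2 for each.

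**Figure D5:**
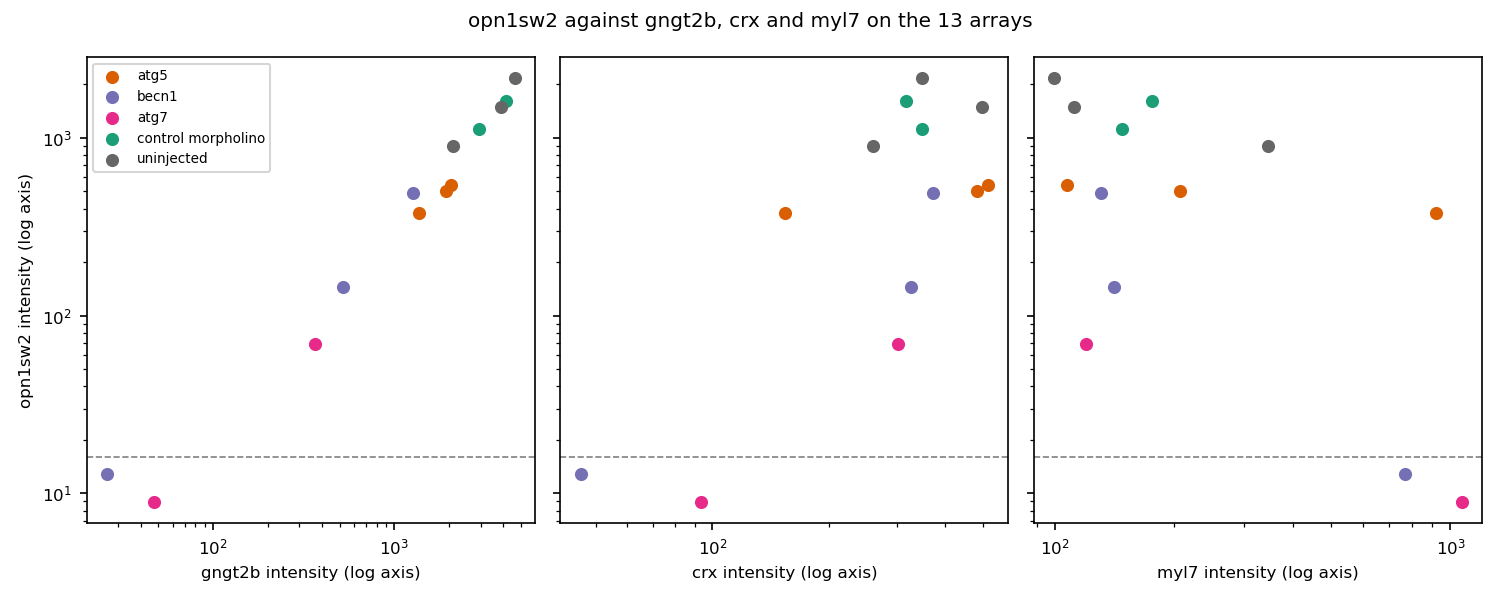
Normalized intensity of opn1sw2 (y, log axis) against that of gngt2b, crx and myl7 (x, log axes), 1 point an array, coloured by group, with the limit of 16 dashed. gngt2b follows opn1sw2 across all groups (r = 0.985), whereas 5 knockdown arrays lie low in opn1sw2 at crx intensities of 302 to 516 and myl7 intensities of 107 to 207. On atg5 1, becn1 1 and atg7 1 crx is low as well, below every control array. crx was chosen after its values were seen, and the part of tissue composition was not tested.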

How the data were processed

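RNA from 13 preparations was hybridised to 1-colour Affymetrix zebrafish arrays. The authors deposited linear MAS5 signal intensities, per the submitters' processing notes. Its version is not stated there. The deposited intensities were not scaled to a common level, as trimmed means of 92.6 to 197 show. The 115 control probe sets were left out. Intensities were put on the log2 scale and quantile normalized, and probe sets above their own array's 40th percentile on at least 2 arrays were kept (10307 of 15502). Gene names came from the platform annotation, in which 10795 probe sets had 1 symbol, 135 several and 4572 none.

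Groups were compared with limma 3.58.1 (R 4.3.3) in 1 fit of 5 group means over all 13 arrays, with a trend in the prior variance and Benjamini-Hochberg adjustment over all kept probe sets. An adjusted p under 0.05 counts as called. Simulated arrays with known changes were used to check the fit. The number of arrays limits the precision. The opsins and the gene lists were chosen with earlier results of these data known. Named genes were the 3 opsins, every other visual opsin on the array, and up to 4 genes a list with the highest mean level above the filter, plus the 5 probe sets most like each opsin. Outside this rule, crx was added after its values were seen, and exorh was named although it did not pass the filter. Other scalings, floors, filters, models and left-out arrays were tried.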

Additional observations from a re-analysis of the deposited data

How the results depend on the processing

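The opsin differences from control morpholino kept their sign under every alternative run. On deposited intensities opn1sw1 differed by -1.31 in atg5, the atg7 minus atg5 differences were called at -6.03, -4.28 and -5.48, and 5, 29, 13 and 14 probe sets were called in becn1, atg7 and the 3 knockdowns against control morpholino and in atg7 against atg5. With 16 added before log2, atg7 differed by -4.77 in opn1sw1 and -4.49 in opn1mw1, with 13, 6 and 4 calls in atg7 against control morpholino, atg5 and becn1. Floored, the calls were 18 in atg7 and 1 in the 3 knockdowns. Median scaling gave 4 calls in atg7 against atg5. Of the calls in atg7 against control morpholino, 0 were left with no filter and with no trend, and 0 in all 3 atg7 comparisons with a stricter filter or only the compared groups. No trend also gave 0 in atg7 against becn1.

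With a replicate block the atg5 differences were -0.68, -0.97 and -0.73 for opn1sw1, opn1sw2 and opn1mw1, against -1.61, -1.52 and -1.70 without it, and calls numbered 25 in becn1, 0 in atg7 and 28 in the 3 knockdowns against control morpholino, 1 in atg7 against atg5 and 0 against becn1. The numbers were not taken to pair the samples, since 12 of 22 same-numbered pairs correlated over 0.1 (median r = 0.13), against 14 of 45 differently numbered ones (median r = -0.07). All 7 same-numbered pairs between knockdown groups were over 0.1 (0.12 to 0.62). In atg7 and in control morpholino the 2 arrays had mirrored correlations with arrays of other groups. For example, becn1 1 had r = 0.62 with atg7 1 and -0.62 with atg7 2. The counts therefore cannot decide whether the numbers pair the samples.

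Chosen after seeing the data, leaving out becn1 1 and atg7 1 gave 0 calls in atg7 against becn1. Leaving out all arrays numbered 1 gave 2, 15 and 32 calls in becn1, atg7 and the 3 knockdowns, 0 in atg7 against atg5 or becn1, and control morpholino minus uninjected at 0.22 for opn1sw2 and 0.34 for opn1mw1. With 1 array left out in turn, those ran from -0.42 to 0.22 and -0.56 to 0.49, and atg7 minus becn1 in opn1mw1 from -4.20 to 0.90. Calls against control morpholino then numbered 0 to 1 in becn1, 0 to 2 in atg7 and 0 to 1 in the 3 knockdowns, and 0 to 2 in atg7 against atg5 or becn1. Where an arm was left with 1 array, it was assumed to vary like the other groups. The causes were not tested. Weak signals set the limit: opsin sizes on becn1 1 and atg7 1 have no exact value.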

Other observations

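rpe65a, the isomerase of the visual cycle in the pigment epithelium, was at 465 on uninjected 1 and 332 on control morpholino 2, and at 14.8 to 59.2 on the other 11 arrays, so its difference between knockdowns and controls rested on those 2 arrays. The median floored log2 difference of the 3 lens genes above the filter was -2.26 on becn1 2, against -0.87 to 0.75 on the other 7 knockdown arrays and -0.92 to 0.93 on the control arrays.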
